A study of Mus musculus with 24 samples.

Results

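Control B cells of the mouse spleen that carry the surface protein CD93 were compared with control B cells that lack it, by RNA-seq, in 3 libraries each. The members are the 6 libraries, of 24 samples in the series, whose labels give a control genotype (CTL) and either CD93-positive or CD93-negative primary B cells. All came from spleens of C57BL/6 mice and were used freshly isolated, and no treatment is named. The alleles that the control mice carry, their age and any pooling of animals are not stated in the labels used here, and neither is whether the replicates are separate animals, so the spread between libraries may be technical. The series as a whole compares such cells with cells deficient in Tet2 and Tet3 (DKO), and the 3 DKO CD93-positive and 3 DKO CD93-negative libraries are used below only as a second set of libraries beside the controls.

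CD93 marks B lineage cells from their precursor stages in bone marrow to the immature, or transitional, cells that have newly reached the spleen, and it is lost as they become follicular or marginal zone B cells. Precursors join the gene segments of their antigen receptor with the Rag1 and Rag2 recombinase, divide in response to interleukin 7, and display a surrogate light chain until a true one is made. Mature B cells take up CD21 (Cr2) and CD23 (Fcer2a), home to follicles by way of chemokine receptors, and present antigen on MHC class II.

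The values are FPKM, fragments scaled to transcript length and to the mapped fragments of the library, and the depth of the libraries is unknown. The CD93-positive and CD93-negative libraries stand in separate tables that had each been normalized on its own, so the table and the population cannot be told apart and no test across them was made. An exact two-sided permutation test of 3 against 3 libraries could in any case not go below p = 0.1. Instead, values were rescaled to a common upper quartile of 24.3 FPKM, and a gene is called higher or lower where its mean log2(rescaled FPKM + 1) differed by at least 1 and no library of either group overlapped the other group. The log2 differences below are on that scale, CD93-positive minus CD93-negative, which understates the differences of low genes. All FPKM values below are rescaled unless stated otherwise.

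The sum of deposited FPKM was 523898 to 595984 in the CD93-positive and 342368 to 394709 in the CD93-negative libraries. CD93-positive replicate 3 stood apart from the other 5 libraries in its sex-linked genes. It had 59.4 FPKM as deposited of Xist, the RNA of the silenced X chromosome, and 0 of the Y-linked Eif2s3y, where the other 5 had 0.594 FPKM or less of Xist and 34.8 or more of Eif2s3y, and 4 Y-linked genes are among those called lower in CD93-positive cells, against 2 without that library. Globin transcripts made up 16.3%, 15.8% and 4.21% of the sum in CD93-positive replicates 1, 2 and 3, and 0.0237% or less in each CD93-negative library. Across genes, Pearson's r between log2 values was 0.961 to 0.971 within the CD93-positive group, 0.959 to 0.971 within the CD93-negative group and 0.792 to 0.838 between them.

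Of 23234 genes, 11331 had at least 1 FPKM in 3 or more of the 6 libraries. Among these, 1250 genes were called higher in CD93-positive cells, 11.0% of those measured, and 1130 were called lower, 9.97%. The median difference over all of them was -0.10 log2 units, and the 5th and 95th percentiles were -1.35 and 1.76. A further 6073 genes did not overlap between the groups but differed by under 1 log2 unit. With or without a call, the CD93-positive libraries lay wholly above the others in 32.7% of genes and wholly below in 41.9%. Without CD93-positive replicate 3, 1276 genes were higher and 1166 lower, of which 1199 and 1071 were among those called with it. The balance between the directions depended on the scaling. Higher genes were 52.5% of all calls as reported, 77.8% with FPKM as deposited, 62.9% with a median ratio over all well-expressed genes, 31.8% with a median ratio over constitutive genes and 84.7% with a median ratio over pan-B genes. These scalings moved the median over all genes by 0.34, 0.13, -0.26 and 0.48 log2 units, in that order, and no called gene took the opposite call under any of them. Gene list counts below are over the members past the filter, which left out 3 of 23 MHC class II genes in the tables, 3 of 24 Toll-like receptor genes, 3 of 15 Fc receptor genes, 5 of 25 immediate early genes, 3 of 32 interferon-stimulated genes and 3 of 20 plasma cell genes, and 2 or fewer of each other B cell list.

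**Figure D1:**
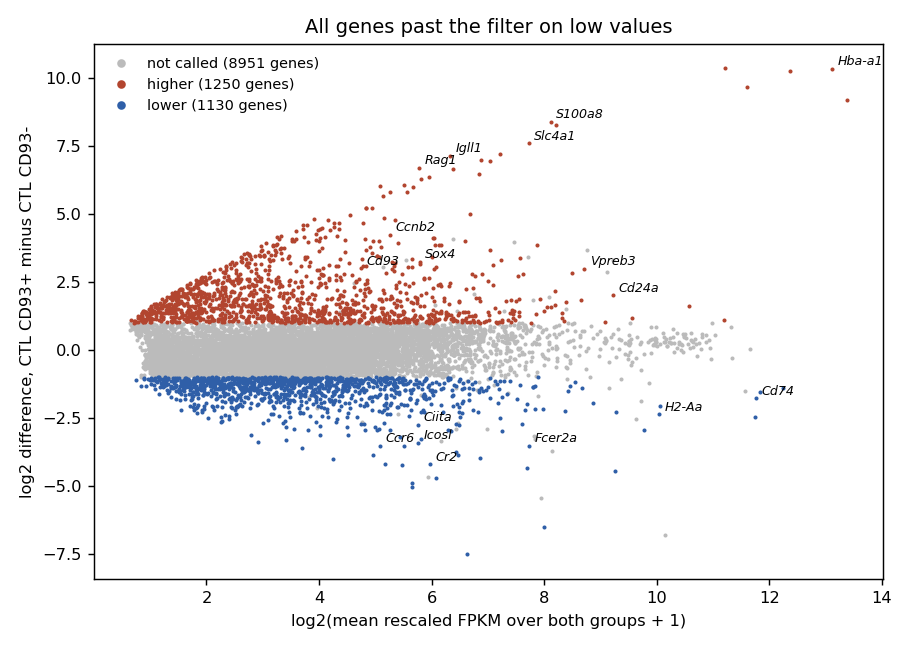
The log2 difference between CTL CD93+ and CTL CD93- libraries (vertical axis) is plotted against the mean level of each gene, log2(mean rescaled FPKM + 1), for the 11331 genes past the filter on low values. The 1250 genes called higher reach past 10 log2 units in the globin gene Hba-a1, and the 1130 called lower include Cr2 and Ciita; grey points are the 8951 genes not called.

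The transcripts of 4 surface proteins that separate transitional from mature B cells differed widely and without overlap. Cd93 itself was at 44.0, 48.3 and 48.8 FPKM in the CD93-positive libraries and at 5.18, 4.80 and 4.88 in the CD93-negative ones, and this checks the labels only. Cd24a, which encodes the heat-stable antigen of immature B cells, was at 1023, 951 and 903 FPKM against 241, 233 and 239. Both were far apart between the groups, by 3.01 and 2.01 log2 units, with little spread within either. Cr2, the complement receptor CD21, was at 5.08, 5.70 and 5.77 FPKM in CD93-positive and 121, 115 and 119 in CD93-negative cells. Fcer2a, the low-affinity IgE receptor CD23, was at 35.3, 33.1 and 30.5 against 401, 378 and 388. These were the reverse, lower in every CD93-positive library than in any CD93-negative one, with differences of -4.20 and -3.52 log2 units.

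The general B cell genes were present in both populations. Cd79a, which encodes a signalling chain of the B cell receptor, was at 1210, 1139 and 1293 FPKM in CD93-positive and 1127, 1082 and 1090 in CD93-negative libraries, a difference of 0.14 log2 units. Of the 6 pan-B genes, none was called higher and 2 were called lower, with Cd22 at -1.99, while Cd79b, Pax5 and Ms4a1 were not called, at 0.23, -0.40 and -0.68. With the pan-B scaling, 1 of the 6 was called lower. That scaling is set on these same 6 genes, so this count cannot show whether they differ. In bulk samples such as these, fewer cells of a type and less RNA of a gene per cell cannot be told apart.

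The genes of V(D)J recombination and of the surrogate light chain held many of the widest differences, with 11 of 18 members called higher and 1 lower, beside 11.0% and 9.97% of all genes, and a median of 2.27 log2 units. Rag1, the catalytic subunit of the recombinase, was at 97.2, 113 and 112 FPKM in CD93-positive libraries and at 0.0410, 0.0474 and 0.0581 in CD93-negative ones. Rag2, its partner, was at 10.9, 10.4 and 12.1 against 0, 0.0481 and 0.0588. In CD93-negative cells both were thus near 0. Dntt, the terminal transferase that adds bases at the joins, was at 43.6, 41.6 and 87.2 against 2.13, 2.79 and 2.51. Igll1, the lambda-like part of the surrogate light chain, was at 145, 135 and 195 against 0.397, 0 and 0. Vpreb1, its other part, was at 108, 96.8 and 161 against 0, 0.542 and 0.996. All 3 were highest in CD93-positive replicate 3, and none came near the CD93-negative range in any CD93-positive library.

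Vpreb2, a near-identical copy of Vpreb1 whose share of the reads is uncertain, was at 56.3, 49.1 and 92.5 FPKM and is listed at 0 in all 3 CD93-negative libraries. Vpreb3, a related chaperone that binds light chains, was at 745, 663 and 830 against 99.5, 96.7 and 82.2, and so remained well above 0 in CD93-negative cells. Other called members were Hmgb1 and Hmgb2, chromatin proteins that bend DNA for the recombinase, at 1.86 and 3.33 log2 units, and the end-joining factors Xrcc6 and Lig4, at 2.64 and 1.90. The other end-joining genes did not share that pattern. Polm, Nhej1, Xrcc4, Dclre1c, Poll and Xrcc5 were not called, between -0.67 and 0.97, and Prkdc, the DNA-dependent protein kinase, was lower at -1.20. The labels give the tissue as spleen, whereas recombination and the surrogate light chain belong mainly to precursors in bone marrow, and these values do not show how many of the sorted cells held such transcripts.

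The sequences before the start sites of Igll1 and Vpreb1 are shown because both genes were near 0 in 1 population and abundant in the other. They are the 250 bases 5' of the start in RefSeq, build GRCm38.p6, at chr16:16863986-16864235 and chr16:16869256-16869505, both on the minus strand, while the deposited values were made on build mm9. Capitals mark CAGNTG, the E-box bound by E2A (Tcf3) and related factors, searched on both strands, where the reverse strand reads CANCTG.
Igll1: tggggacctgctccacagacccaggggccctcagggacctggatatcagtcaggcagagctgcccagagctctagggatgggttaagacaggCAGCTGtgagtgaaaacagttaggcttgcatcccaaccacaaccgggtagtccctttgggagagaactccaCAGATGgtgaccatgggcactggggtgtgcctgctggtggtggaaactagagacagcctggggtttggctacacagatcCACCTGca
Vpreb1: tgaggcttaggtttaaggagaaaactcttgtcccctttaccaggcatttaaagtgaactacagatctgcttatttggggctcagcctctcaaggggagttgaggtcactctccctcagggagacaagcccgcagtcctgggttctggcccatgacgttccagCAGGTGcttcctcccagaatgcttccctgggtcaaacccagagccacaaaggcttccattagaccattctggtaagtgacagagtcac
Igll1 held the motif with its first base 158, 87 and 8 bases before the start, and Vpreb1 held it 88 bases before. Among the 11 V(D)J and surrogate light chain genes called higher, 7 were chosen for the search, all with a promoter entry. Of these 7, 5 held the motif in at least 1 window of this length, and so did 48.2% of all 27025 genes with an entry. A match is a string of letters and was not shown to be a bound site.

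**Figure D2:**
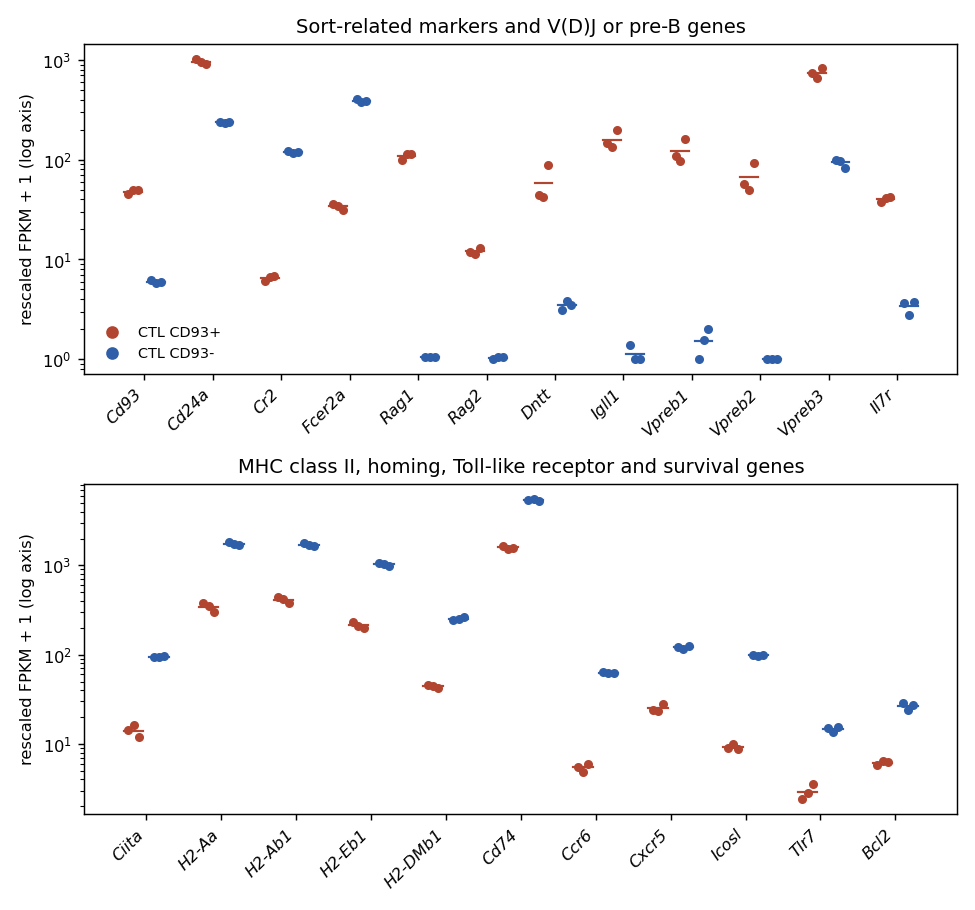
Rescaled FPKM + 1 on a log axis is shown for each library, with the 3 CTL CD93+ libraries in red, the 3 CTL CD93- libraries in blue and a bar at the mean of the plotted values. Rag1, Igll1 and Vpreb1 are between 96.8 and 195 FPKM in CD93+ and under 1 FPKM in CD93- libraries, and Cr2, Fcer2a and the MHC class II genes lie the other way round with no overlap.

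Receptors of B cell precursors were higher as well. In a list of 17 such genes put together after the data were seen, 14 passed the filter on low values, 8 were called higher and none lower. Il7r, the receptor for interleukin 7, was at 36.8, 39.9 and 41.5 FPKM in CD93-positive and 2.65, 1.79 and 2.72 in CD93-negative libraries. Gpr56, an adhesion receptor, was at 29.2, 32.1 and 46.5 against 0.316, 0.320 and 0.607. Il2ra, a subunit of the interleukin 2 receptor that marks the small pre-B cell in bone marrow, was at 19.0, 19.6 and 19.3 against 3.02, 2.07 and 2.71. These were all called higher, and a call itself needs no overlap. Gfra1, Bst1, Kit and Enpep were also called, from 1.34 to 4.44 log2 units, whereas Flt3, Cd2 and Crlf2 were not, from -0.75 to -0.39.

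Il7r is also a T cell gene, and other T cell genes differed alongside it. Of the 9 other T cell genes past the filter, 5 were called higher, and Cd3g, a chain of the T cell receptor complex, was at 13.2, 15.2 and 16.4 FPKM against 0.969, 2.62 and 1.83. Cd4, Cd8a, Cd8b1 and Lck were not called, from -0.43 to 0.49 log2 units. The summed level of these 9 was 77.1 to 92.3 FPKM in CD93-positive and 41.9 to 55.4 in CD93-negative libraries. Their part in the Il7r values was not tested.

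Among the wider list of immature and transitional B cell genes, 13 of 28 were called higher and 1 lower, with a median of 0.89 log2 units, and 6 of the 13 were genes of the V(D)J list. Without Cd93, the sorted marker, and Cd24a, 11 of 26 were higher, with a median of 0.79. Myb, a transcription factor of progenitor cells, was at 109, 118 and 132 FPKM in CD93-positive and 12.2, 14.8 and 13.9 in CD93-negative cells. Sox4, a factor needed in early B lineage cells, was at 92.4, 99.3 and 106 against 10.4, 9.59 and 8.73. Akap12, a scaffold protein of kinase A, was at 70.4, 79.3 and 80.2 against 10.8, 9.69 and 9.94. The libraries of each group lay close together in all 3 genes. Cecr2 and Marcks were called as well, at 2.51 and 1.14 log2 units. The other 14 members were not called, among them Spib, Ly6d, Cd9, Blnk and Cd81, from 0.04 to 0.70, and Cd38 at -0.85. Il4ra, the interleukin 4 receptor, was the member called lower, at 21.3, 22.8 and 21.4 against 53.6, 61.9 and 59.0 FPKM.

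B lineage transcription factors were mixed, with 5 of 39 called higher and 13 lower, and a median of -0.44 log2 units that is nearer the all-gene median than those of the lists above. Lef1, a nuclear target of Wnt signalling found in precursors, was at 22.8, 25.5 and 34.6 FPKM against 4.0, 2.24 and 3.16. Tcf3, which encodes the E2A proteins, was at 246, 250 and 260 against 88.8, 93.6 and 87.4. Zeb2 was called higher at 1.10. Ebf1, Pax5, Ikzf1 and Foxo1, which also act in specifying the lineage, were not called, at 0.72, -0.40, 0.45 and -0.14. On the lower side stood Bcl6, the germinal centre repressor, at 9.70, 7.60 and 8.07 against 37.7, 36 and 33.5, and Mef2c at 20.6, 22.2 and 20.3 against 76.5, 73.9 and 73.4. Egr3, induced by receptor signalling, was at 10.9, 11.5 and 10 against 51.1, 53.1 and 64.6. Runx3, Bcl11a, Pou2f2, Ikzf3 and Nr4a1 were lower as well, from -1.80 to -1.13. Under the scalings tried, 4 to 12 members were higher and 5 to 17 lower, and adjusted for transcript length, 6 were higher and 7 lower.

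Cell-cycle genes were nearly all higher in CD93-positive cells. Of 30 proliferation genes, 27 were called higher and none lower, with a median of 2.47 log2 units. Ccnb2, a mitotic cyclin, was at 78.9, 66.3 and 71.1 FPKM in CD93-positive and 2.97, 3.09 and 2.52 in CD93-negative libraries. Rrm2, a subunit of the ribonucleotide reductase that makes DNA precursors, was at 132, 128 and 110 against 4.42, 7.52 and 6.83. Mki67, the proliferation antigen, was at 73.9, 88.0 and 57.0 against 5.91, 7.53 and 7.68. Genes of mitosis and of DNA replication were both among them. The replication helicase genes Mcm2, Mcm3, Mcm5, Mcm6 and Mcm7 lay between 1.42 and 1.96 and Pcna at 1.89, below the mitotic genes Ccnb1, Birc5, Cdc20 and Ccna2 at 3.47 to 4.06. Tk1, Mcm4 and Tyms were not called, at 0.98, 0.83 and -0.19. Under the scalings tried 26 to 29 members were called higher. The list's median gene in CD93-positive replicate 3 stood at 0.947 of the mean of replicates 1 and 2, and without that replicate 28 members were called higher. The part of the dividing precursors of other blood cells, whose markers are given below, was not tested.

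The programme of the mature follicular B cell lay on the other side. Of 24 genes, none was called higher and 15 were called lower, with a median of -1.56 log2 units. Gpr183, the oxysterol receptor that guides B cells within the follicle, was at 3.23, 3.54 and 3.11 FPKM in CD93-positive and 29.1, 24.1 and 23.9 in CD93-negative cells. Cd55, a regulator of complement, was at 25.1, 30.8 and 25.6 against 160, 148 and 149. Pou2af1, Cd72, Klf2, Cd37 and Traf5 were not called, from -0.50 to 0.66. The marginal zone and Notch2 list had 12 of 23 members lower and none higher, with a median of -1.0. Notch2, the receptor that directs cells to the marginal zone, was at 12.3, 15.1 and 14.7 against 55.8, 57.6 and 57.3, and its target Dtx1 at 17.6, 18.2 and 22.0 against 46.6, 47.5 and 48.2. Hes1, another Notch target, was not called at -0.20, nor was Cd1d1, the lipid-presenting molecule, at -0.06. Over the scalings tried, 12 to 17 follicular and 5 to 14 marginal zone genes were lower, and adjusted for transcript length, 15 and 9 were. The lists are not independent, since Cr2 stands in both of these. Other follicular genes recur in lists below, with Icosl in the MHC class II list, Ccr6 and Gpr183 among homing receptors and Fcer2a among Fc receptors.

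Genes of MHC class II presentation were lower in 17 of 20 cases, with none higher and a median of -2.09 log2 units. H2-Aa, a class II alpha chain, was at 374, 350 and 299 FPKM in CD93-positive and 1837, 1733 and 1698 in CD93-negative cells. H2-Ab1, a beta chain, was at 437, 420 and 373 against 1782, 1707 and 1649. Cd74, the invariant chain, was at 1660, 1541 and 1556 against 5429, 5507 and 5256. Every one of these was thus abundant in both populations and several times lower in CD93-positive cells, as in H2-Aa with a ratio of 5.15. Ciita, the coactivator on which class II transcription depends, was at 13.3, 15.1 and 11 against 92.1, 92.2 and 95. The peptide loaders H2-DMa, H2-DMb1 and H2-DMb2 and their regulators H2-Oa and H2-Ob had differences from -2.50 to -1.65. Of the factors that bind class II promoters, Rfx5 was lower at -1.35, and Rfxank and Rfxap were not called at -0.41 and 0.55. Ctss, which trims the invariant chain, was at -1.28, and Ifi30, a lysosomal reductase, was not called at 0.21.

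The promoters of 3 class II genes are shown since these genes were lower together and the factors that bind there were measured. They are the 250 bases before the start in RefSeq, build GRCm38.p6, on the plus strand, at chr17:34305617-34305866 for H2-Eb1, chr17:34152941-34153190 for H2-DMb1 and chr17:34092129-34092378 for H2-Oa. Capitals mark ACNGATG, letters from the X box that the RFX complex binds, and ATTGG, read CCAAT on the reverse strand, the Y box bound by NF-Y. Both were searched on both strands.
H2-Eb1: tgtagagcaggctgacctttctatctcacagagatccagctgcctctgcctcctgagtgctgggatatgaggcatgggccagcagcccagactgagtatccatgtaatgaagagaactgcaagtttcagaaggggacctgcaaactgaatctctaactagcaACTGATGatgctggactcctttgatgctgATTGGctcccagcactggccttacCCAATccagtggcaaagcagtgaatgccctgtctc
H2-DMb1: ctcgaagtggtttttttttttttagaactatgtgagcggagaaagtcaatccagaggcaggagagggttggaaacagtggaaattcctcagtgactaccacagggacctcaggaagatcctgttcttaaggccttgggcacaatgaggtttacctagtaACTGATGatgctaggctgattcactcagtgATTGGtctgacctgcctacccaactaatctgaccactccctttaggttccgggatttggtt
H2-Oa: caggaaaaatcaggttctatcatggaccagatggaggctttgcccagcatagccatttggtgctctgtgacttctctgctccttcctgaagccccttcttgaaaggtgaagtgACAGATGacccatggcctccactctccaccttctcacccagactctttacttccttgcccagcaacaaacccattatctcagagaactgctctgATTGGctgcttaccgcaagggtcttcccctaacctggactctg
The first base of the X box letters lay 88, 91 and 137 bases before the start in H2-Eb1, H2-DMb1 and H2-Oa, and an ATTGG followed in each, 59, 61 and 43 bases before. The spacing was thus alike in H2-Eb1 and H2-DMb1 and much wider in H2-Oa. The matches were not shown to be bound sites. Of 7 class II genes with a promoter entry, 5 held ACNGATG and all 7 held ATTGG, against 9.45% and 37.5% of all genes. The X box letters occurred in 3 of the 7 V(D)J and surrogate light chain genes and in 0 of 12 mitotic genes called higher. ATTGG occurred in 1 of those 7 and in 11 of those 12, so neither string was particular to the class II genes. H2-Eb1 was at 230, 211 and 196 FPKM against 1058, 1047 and 981, H2-DMb1 at 45.2, 44.1 and 41.4 against 245, 247 and 260, and H2-Oa at 40.7, 36.9 and 39.2 against 129, 135 and 111.

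Ligands and costimulators for T cells stood in the same list. Icosl, the ligand of ICOS, was at 8.03, 9.10 and 7.75 FPKM in CD93-positive and 97.3, 96.0 and 99.4 in CD93-negative cells, the widest difference of the list at -3.41. Cd274 and Pdcd1lg2, the ligands of PD-1, were at -2.26 and -2.11, Cd83 at -2.22 and Cd86 at -1.03. Cd86 was low in both populations, at 3.75, 3.59 and 5.23 against 11.6, 7.81 and 9.40 FPKM.

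Receptors for homing were mostly lower, 14 of 27, with 2 higher and a median of -1.07 log2 units. Cxcr5, which leads B cells into follicles, was at 23.3, 22.5 and 27.2 FPKM in CD93-positive and 122, 115 and 123 in CD93-negative cells. Ccr6, a chemokine receptor of mature B cells, was at 4.58, 3.85 and 5.0 against 62.3, 61.1 and 61.4. Both were called lower, which itself needs no overlap. S1pr1, the receptor for egress into blood, was lower at -1.17, and Ccr7 was not called at -0.72. Cxcr4, which retains precursors in bone marrow, was the reverse, at 178, 172 and 172 against 47.2, 40.6 and 48.9, a difference of 1.91. Itgam, an integrin of myeloid and B-1 cells, was the other higher gene, at 1.69, but was called lower in the DKO libraries, at -1.13.

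B cell receptor signalling genes had 2 of 38 called higher and 11 lower, with a median of -0.50 log2 units, and 7 to 15 were lower over the scalings tried. The kinases next to the receptor were not called, with Syk at 0.27, Lyn at -0.01 and Btk at -0.56, and neither was the adaptor Blnk at 0.07. Lower were the adaptor Bank1, at 28.2, 31.4 and 31.6 FPKM against 162, 155 and 147, and Rasgrp3, an activator of Ras, at 5.55, 5.62 and 5.47 against 49.5, 47.5 and 49.2. Malt1, a protease on the path from the receptor to NF-kappaB, was at -1.58. Cd22, the inhibitory lectin named above, and the phosphatase Ptprc, at -1.81, were lower too. Cd5, a negative regulator found on T and B-1 cells, was called higher at 1.22, and so was the potassium channel Kcnn4 at 1.73, which was lowest in CD93-positive replicate 3.

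Survival genes were split. Bcl2 was at 4.79, 5.39 and 5.33 FPKM in CD93-positive and 28.1, 22.7 and 26.1 in CD93-negative cells, whereas Bcl2l1, which encodes the related inhibitor of cell death Bcl-xL, was at 87.6, 88.6 and 55.6 against 0.733, 2.40 and 2.68. Of 17 family members past the filter, 4 were higher and 4 lower. Bmf, a proapoptotic member, was higher at 1.19, and Mcl1 and Bcl2l11 were not called at -0.80 and -0.75. Over the scalings tried 2 to 5 members were higher and 3 to 9 lower, and adjusted for transcript length, 2 were higher and 5 lower. In CD93-positive replicate 3, Bcl2l1 stood at 0.631 of the mean of replicates 1 and 2, beside a median of 0.262 for the red cell markers described below, and the part of red cell transcripts in its value was not tested. The 3 Bcl2a1 genes were called lower but are near-identical copies, so their values are uncertain.

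In the BAFF, APRIL, CD40 and NF-kappaB list, 8 of 27 genes were lower and none higher, with a median of -0.81 log2 units. Tnfrsf13c, the BAFF receptor that keeps maturing B cells alive, was at 103, 95.4 and 113 FPKM against 195, 198 and 192, a difference of -0.91 that was not called. Cd40 was lower at 25.4, 21.8 and 23.3 against 59.9, 54.9 and 52.7, and Rel, an NF-kappaB subunit, at 12, 14.4 and 13.3 against 51.2, 39.9 and 46.4. Lta and Ltb, the lymphotoxins, were at -2.95 and -1.5. Nfkb1, Rela and Nfkbia were not called, from -0.59 to 0.17. Over the scalings tried 3 to 16 members of this list were lower.

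Toll-like receptor genes had 9 of 21 lower and none higher, with a median of -0.73, and 4 to 12 were lower over the scalings tried. Tlr1 was at 7.04, 7.94 and 8.93 FPKM against 66.5, 65.3 and 68.2, and Tlr7, a sensor of RNA, at 1.39, 1.81 and 2.54 against 14.0, 12.6 and 14.6. Tlr9, a sensor of DNA, was not called at -0.72, nor were the adaptor Myd88 at 0.30 and the transporter Unc93b1 at -0.41. Of 12 Fc receptor and Fc receptor-like genes, 6 were lower, led by Fcer2a and by Fcamr, a receptor for IgM and IgA, at 1.37, 0.536 and 1.01 against 20.0, 16.3 and 18.6. The GIMAP genes, small GTPases of lymphocyte survival listed after the data were seen, had 7 of 8 lower and a median of -2.22, with Gimap8 at 8.39, 10.9 and 9.51 against 104, 100 and 99.5.

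**Figure D3:**
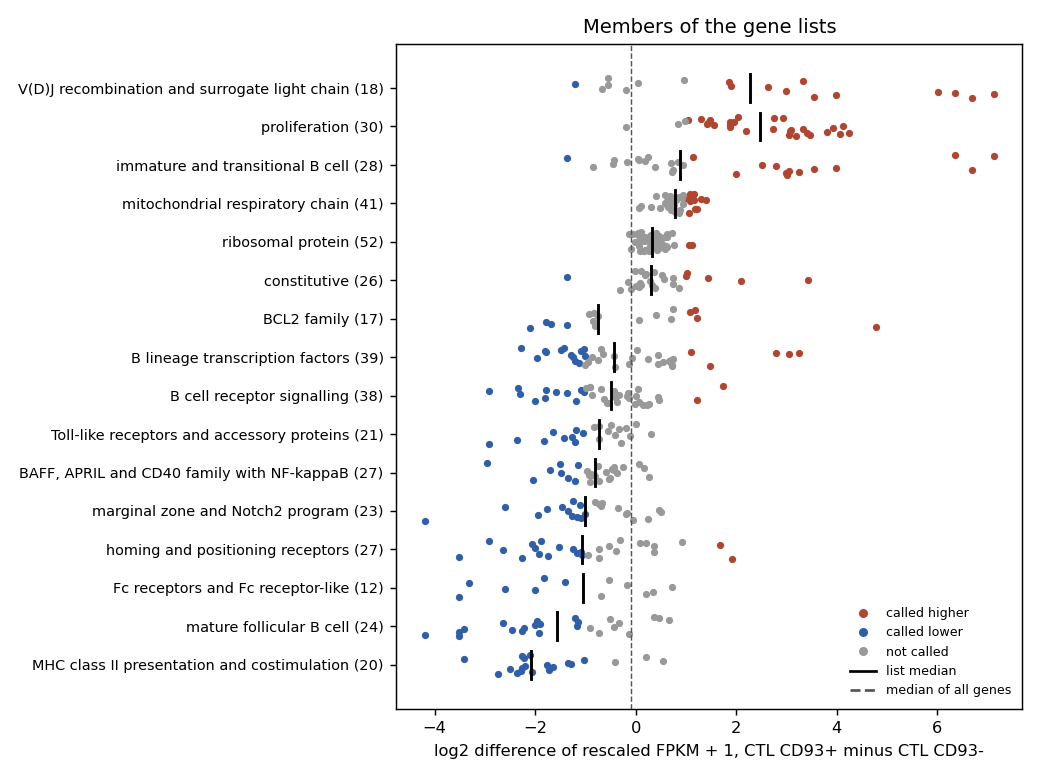
Each point is the log2 difference, CTL CD93+ minus CTL CD93-, of a gene past the filter, for 16 lists with the number of genes in brackets; bars mark list medians and the dashed line the median of all genes at -0.10. The proliferation and V(D)J lists have medians of 2.47 and 2.27, and the MHC class II list has -2.09.

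Enzymes of DNA methylation, also listed after the data were seen because the series concerns them, had 3 of 16 genes higher and 1 lower, and over the scalings tried 2 to 7 were higher and 0 to 3 lower. Uhrf1, which guides the maintenance methylase to newly copied DNA, was at 88.0, 83.9 and 93.4 FPKM in CD93-positive and 8.0, 10.3 and 11 in CD93-negative cells. Dnmt1, that methylase, was not called at 0.81, and Dnmt3a was at -0.29. Tet2, a dioxygenase that oxidises 5-methylcytosine, was lower in every CD93-positive library, at 2.75, 3.29 and 2.53 against 8.50, 8.37 and 9.55. Tet3 was at 10.5, 12.3 and 11.5 against 19.8, 20.7 and 20.7, a difference of -0.78 that was not called, and Tet1 was under the filter.

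Genes of energy and protein synthesis differed by small amounts that moved with the processing. Of 41 respiratory chain genes, all had positive differences and 11 were called higher, with a median of 0.79, led by Cox5b at 280, 252 and 284 FPKM against 113, 107 and 88.1. Of 52 ribosomal protein genes, 2 were called higher, with a median of 0.33. Over the scalings tried, 2 to 37 respiratory chain and 0 to 16 ribosomal genes were called. Differences also followed transcript length, taken as the longest GENCODE transcript for 10176 genes (89.8%), with a median from 0.43 in the tenth of genes with the shortest transcripts to -0.51 in the tenth with the longest. In the DKO libraries, which share the tables, these medians were 0.48 and -0.50. With that trend removed, 4 respiratory chain and 0 ribosomal genes were called, while the MHC class II list had 17 lower, the proliferation list had 26 higher and the V(D)J list had 11 higher.

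**Figure D4:**
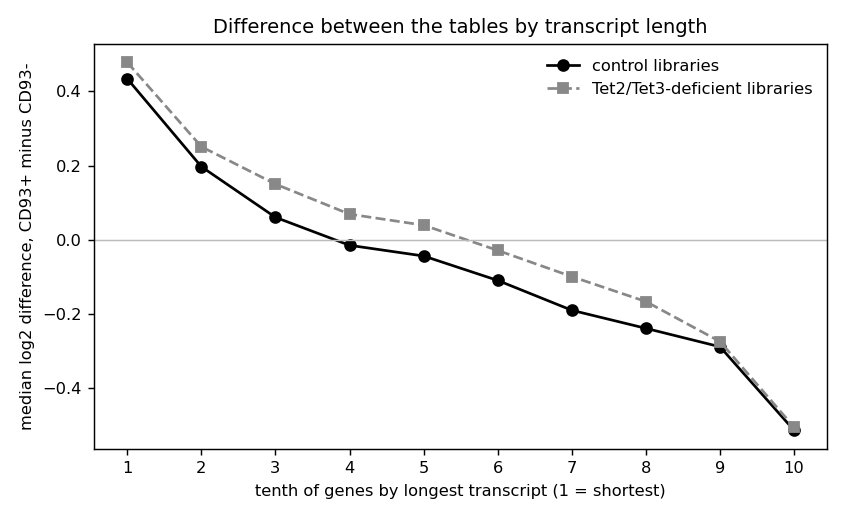
The median log2 difference between CD93+ and CD93- libraries is plotted for 10 equal groups of genes ordered by their longest transcript, for the control libraries (black) and the Tet2/Tet3-deficient libraries (grey). Both lines go down with length, from 0.43 to -0.51 in the controls and from 0.48 to -0.50 in the deficient libraries.

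The shares of higher genes among the heat shock, quiescence and interferon-stimulated lists, 9.09%, 8.70% and 10.3%, were close to the 11.0% of all genes. Among stress genes, 1 of 11 heat shock genes was higher and none lower, with a median of 0.15. Immediate early genes had 5 of 20 higher and 5 lower, or 4 to 8 and 3 to 6 over the scalings tried. Jun was at 46.7, 40.1 and 49.5 FPKM in CD93-positive and 12.8, 13.8 and 15 in CD93-negative cells, while Egr1, Egr2, Egr3 and Nr4a1 were lower, from -2.27 to -1.02. In the quiescence list, 2 of 23 were higher, the cell-cycle inhibitors Cdkn2c and Cdkn2d at 2.74 and 1.61, and 4 were lower, or 1 to 8 over the scalings tried, while Btg1 and Foxo1 were not called at 0.04 and -0.14. Of 29 interferon-stimulated genes, 3 were higher and 2 lower, the latter 0 to 9 over the scalings tried. The 3 were Rsad2, an antiviral enzyme, at 88.4, 96.4 and 20.7 against 1.11, 1.24 and 0.681, Isg20 at 3.10 and Isg15 at 2.03, each lowest in CD93-positive replicate 3 within its group. Without that replicate, 8 were lower.

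Plasma cell genes had 4 of 17 higher and 1 lower, with a median of -0.00, and 3 to 7 were higher over the scalings tried. Fam46c had the widest difference, at 67.2, 78.2 and 11 FPKM against 0.435, 0.588 and 0.719, and its ratio of CD93-positive replicate 3 to the other 2 was 0.152, beside 0.262 for the red cell markers. Igj, the chain that joins IgM and IgA polymers, was at 31.6, 25.6 and 33.1 FPKM in CD93-positive and 6.00, 10.1 and 9.88 in CD93-negative cells, and Sdc1, the plasma cell antigen CD138, at 15.4, 15.9 and 16.0 against 4.64, 5.91 and 5.33. Xbp1, which drives secretion, was not called at -0.20. Of 22 B-1 cell genes, 3 were higher and 6 lower, or 2 to 6 and 4 to 7 over the scalings tried.

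Transcripts of other blood cells differed too. All 10 red cell markers were higher, with a median of 7.41 log2 units and a summed level of 12330 to 55756 FPKM in CD93-positive against 62.7 to 79.4 in CD93-negative libraries. Slc4a1, the anion exchanger of the red cell membrane, was at 564, 592 and 106 FPKM in CD93-positive and 0.549, 0.952 and 0.604 in CD93-negative libraries. Hba-a1, an alpha globin whose near-identical copy makes its value uncertain, was at 24902, 23360 and 4776 against 36.2, 33.5 and 0.0101. These genes were lowest in CD93-positive replicate 3, where the list's median gene stood at 0.262 of the mean of the other 2 replicates. In a list of heme synthesis and red cell membrane genes, put together after the data were seen, 21 of 22 were higher and that ratio was 0.276. Genes of red cell precursors were among them, with the factors Klf1 at 37.2, 34.3 and 13.7 FPKM and Gata1 at 16.0, 13.8 and 4.90, the latter listed at 0 in all 3 CD93-negative libraries.

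Neutrophil granule genes were higher in all 3 replicates alike, with a ratio of replicate 3 to the others of 0.899. Of 9 neutrophil markers, 7 were called higher, with a summed level of 1526 to 1934 FPKM against 12.4 to 17. S100a8 was at 628, 506 and 520 against 1.40, 0.809 and 0, and Mpo, an enzyme of early granules, was at 15.9, 14.6 and 20.5 and listed at 0 in all 3 CD93-negative libraries. Csf3r and Cxcr2, receptors of mature neutrophils, were not called at 0.20 and -0.46. Macrophage and monocyte genes had 8 of 10 higher, with sums of 159 to 239 against 28.1 to 28.2 FPKM, while Emr1 and Cd68 were not called. Lyz2 led them, at 132, 113 and 122 against 3.72, 7.0 and 8.56. The replicates were less even in this list, with a median ratio of replicate 3 to the others of 1.80. C1qa, for instance, was at 12.3, 5.64 and 19.2 FPKM in CD93-positive libraries.

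NK cell genes, and fewer dendritic cell genes, were called the other way. Of 7 NK genes, 6 were lower, with sums of 16.7 to 30.9 FPKM in CD93-positive and 63.0 to 99.4 in CD93-negative libraries, and Ncr1 was at 1.51, 0.862 and 1.19 against 6.94, 9.25 and 8.64. Of 8 dendritic cell genes, 3 were under the filter, 3 were not called and 2 were lower. Of these 2, Clec9a was at 0.252 FPKM or less in CD93-positive libraries and passed the filter only through the CD93-negative ones. Siglech was at 2.41, 2.75 and 1.86 against 25.4, 26.8 and 31.5. None of the 6 megakaryocyte genes passed the filter. Of the 1250 genes called higher, 185 (14.8%) had less in CD93-positive replicate 3 than 0.5 times the value of either other CD93-positive library, and 1065 did not. The same held for 14 of the 1130 genes called lower and 101 of the 8951 not called. That threshold was chosen after the data were seen. The part of these other cells in the B cell lists was not tested.

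**Figure D5:**
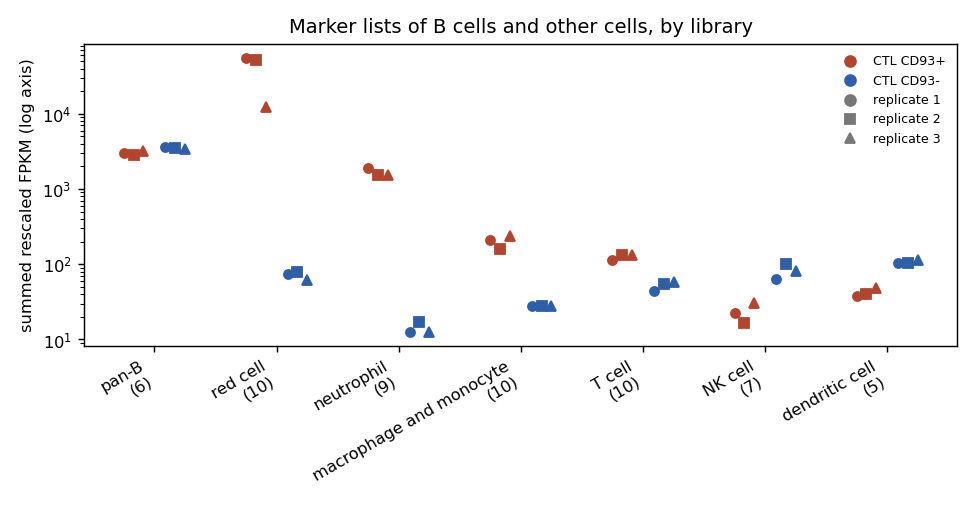
The summed rescaled FPKM of the markers of each cell type is plotted on a log axis for each library, with the number of genes in brackets, CTL CD93+ in red, CTL CD93- in blue and a symbol for each replicate. The red cell sum is 12330 to 55756 in CD93+ and 62.7 to 79.4 in CD93- libraries. The pan-B sums are closer, at 2850 to 3214 in CD93+ and 3450 to 3627 in CD93- libraries, without overlap.

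The DKO libraries gave a second pair of groups in the same tables, so they share any difference between the tables. The Y-linked Eif2s3y was at 0 in all 3 DKO CD93-positive libraries and at 43.5 to 48.9 FPKM in the DKO CD93-negative ones, so sex and population cannot be told apart in the DKO pair. There, 1034 of 11317 genes were higher in CD93-positive cells (9.14%) and 858 lower (7.58%). The genes higher in both genotypes numbered 824, which is 65.9% of the control and 79.7% of the DKO calls, and those lower in both 689, which is 61.0% and 80.3%. Called in opposite directions were 2 genes, Itgam and Slfn1, a gene of the quiescence list at -2.15 in the controls and 1.2 in the DKO libraries. The filter was applied to each pair of groups on its own, so list sizes differ. In the DKO libraries 11 of 18 V(D)J genes were higher and 16 of 23 MHC class II genes lower, beside 11 of 18 and 17 of 20 in the controls. For proliferation the DKO median was 1.25 with 21 of 30 higher, beside 2.47 and 27 in the controls, and Mki67 was at 0.77 beside 3.19. In the marginal zone list 5 of 21 genes were lower there and 1 higher, beside 12 of 23 lower and none higher in the controls. The plasma cell list had 6 of 19 higher, beside 4 of 17. Whether the genotypes differed in these respects was not tested.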

How the data were processed

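RNA had been purified on RNeasy micro columns and made into strand-specific libraries with a SureSelect kit, per the labels. The authors deposited FPKM values per gene and library, and the submitters' processing notes name build mm9 with Cufflinks 2.1.1, Bowtie2 2.1.0 and TopHat2 2.0.8. The annotation and any filter are not given in the sources used here. FPKM holds no counts, so the depth is unknown and no count model was used. Reads of near-identical genes may have been split between them.

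Groups came from the sample labels. The 6 control libraries were joined by gene symbol. The 25 names that had taken the form of dates stayed among the 23234 genes and were left out only when genes were named. Rows of repeated headers were left out. A further 6 columns repeated the CD93-positive values and were not used, and 12 of the 24 samples were not analysed here. A gene was kept where 3 or more of the 6 libraries had 1 FPKM or more, each library was rescaled to a common upper quartile of these genes, and means were taken on log2(FPKM + 1). A call needed a difference of 1 log2 unit and no overlap. The rule was tested on simulated data. No p-value was computed, since the groups stand in separately normalized tables.

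Members and lists were chosen with earlier results of these data known. Of the lists, 31 were written down first and 4 were added after seeing the data. Genes were named by a rule that took the sort markers and a set of chosen members, the 15 largest called differences in each direction with a mean of at least 5 rescaled FPKM, leaving out predicted genes and receptor segments, and up to 5 called members of each list. Members given as values beside these were chosen after their values were seen. Some genes that met the rule are left out. Alternatives were other scalings, pseudocounts, filters and call thresholds, and each library left out, and scaling on pan-B genes and adjustment for transcript length were added after seeing the data. Promoters came from RefSeq tables of build GRCm38.p6, another build than that of the values. Python 3.11.15, pandas 2.3.3, numpy 2.4.6 and matplotlib 3.10.9 were used.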

Additional observations from a re-analysis of the deposited data

How the results depend on the processing

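As reported, 1250 genes were higher and 1130 lower in CD93-positive cells. The numbers higher and lower were 2027 and 578 with FPKM as deposited, 934 and 2006 with scaling on constitutive genes, and 2473 and 447 with scaling on pan-B genes, which was chosen after seeing the data. With a pseudocount of 5 they were 661 and 473, and with 0.1 they were 1495 and 1615. With a filter of 5 FPKM they were 908 and 837. A call at 0.5 log2 units gave 2484 and 3201, and at 2 log2 units 433 and 160. With quantile normalization they were 1187 and 1112, with a median ratio over all well-expressed genes 1471 and 867, with no filter 1274 and 1148, and after adjustment for transcript length, also chosen after seeing the data, 1009 and 995. Leaving out each library in turn gave 1226 to 1280 higher and 1079 to 1239 lower. No gene took the opposite call in these settings. Of 3138 values of named genes under the alternatives, 2249 moved by less than 1 SD and 889 by more. Among the called genes 0 changed sign. Genes not called were left out of that count, and some did change sign, such as Pax5, from -0.70 to 0.14 over the scalings. No paired analysis was possible because the result comes from no test and the groups stand in separate tables. FPKM gives no depth, so no limit of detection could be set for genes listed at 0.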

Other observations

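Several of the largest differences lay in genes of none of the lists. Lower in CD93-positive cells were Mid1, a ubiquitin ligase of microtubules, at 2.98, 4.11 and 2.30 FPKM against 58.3, 57.5 and 56.4, Il9r, the receptor for interleukin 9, at 0.900, 1.24 and 0.757 against 22.6, 22.2 and 23.8, and Clec2i, a C-type lectin, at 5.28, 6.75 and 6.84 against 84.8, 80.0 and 82.2. H2-Eb2, a class II gene outside the list, was at 3.94, 3.88 and 3.22 against 42.4, 38.3 and 39.5. Gvin1, a large GTPase, was at 0.849, 1.22 and 1.47 against 42.4, 35.1 and 26.3. Each of these 5 was called lower, so the lack of overlap follows from the rule.

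Of the 15 largest higher genes, Beta-s, a further beta-globin name whose reads may be shared with its copies, was at 29284, 27501 and 7361 FPKM against 28.5, 36.2 and 26.7. Tmcc2 was at 300.4, 320.0 and 56.6 against 1.40, 0.478 and 1.17, and like the globins was lowest in CD93-positive replicate 3 of its group.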
